A study of Mus musculus with 44 samples.

Results

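Nuclear genes of the mitochondrial respiratory chain and ATP synthase were examined in single two-cell mouse embryos. The genes were taken from the 35269 rows of the table by name, as all rows beginning with Nduf, Uqcr, Cox4 to Cox8 or Atp5 together with Sdha to Sdhd, and 1 matching row named as a pseudogene was left out. This gave 94 rows: 38 of complex I, 8 complex I assembly factors (Ndufaf1 to Ndufaf8), 4 of complex II, 8 of complex III, 18 of complex IV and 18 of ATP synthase. The rule follows names, so it keeps the complex I assembly factors, counts Ndufa4 with complex I, includes Atp5s, which is not a structural subunit, and misses Cyc1 of complex III. Atp5o is present as 2 rows, the gene itself and a read-through transcript that joins it to its neighbour Donson.

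The 44 embryos came from C57Bl/6 natural matings and were collected at E1.5, and each was sequenced as its own library. A litter here is the embryos of 1 mating. WT embryos (14, from litters of 10 and 4) are Dppa2/4+/+, from control females and WT males. In the other matings the females carried a floxed Dppa2/4 allele (cKO) that Zp3-Cre, active in growing oocytes, deletes from exon 2 of Dppa4 to exon 7 of Dppa2, so these embryos lacked maternal Dppa2/4. HET1 embryos (15, from litters of 7 and 8) had WT fathers and are Dppa2/4+/-. HET2 (5, from litters of 4 and 1) and HOM (10, from litters of 3 and 7) are the Dppa2/4+/- and Dppa2/4-/- embryos of the same 2 litters sired by heterozygous males, and the study told the genotypes apart by the Dppa2/4 reads of each embryo. Dppa2 had 184 to 2144 reads in WT embryos and 0 to 7 reads in HOM embryos, a difference that the assignment itself used.

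Depth and litter differed with the groups. Embryos had 247667 to 3163026 reads, with medians of 1770010 in WT, 528166 in HET1, 1108889 in HET2 and 803369 in HOM, and 6 of the 8 embryos under 500000 reads were HET1. WT and HET1 share no litter with another group, so in any comparison with WT the group and its litters cannot be told apart. Embryos of a litter share their parents, and p-values over embryos therefore measure the spread between embryos, not between litters. Fewer mitochondria-related transcripts and a larger pool of other RNA cannot be told apart in values scaled to the reads of an embryo. The two-cell and oocyte markers, 12 genes such as Zscan4d and Oosp1, summed to between 1311 and 8009 RPM (reads per 1e6 reads of the embryo), and Dppa3 (10.42 log2 RPM) and Bmp15 (8.98) had the highest means. Of 10 cumulus and granulosa markers 2 were tested, Nr5a2 (5.72) and Cyp19a1 (0.62), and 2 had no reads in any embryo. The level of this list rests on Nr5a2, and which cells its reads came from was not tested. Of 7 sperm markers 5 had no reads in any embryo and the sum never passed 0.706 RPM.

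The respiratory chain of the inner mitochondrial membrane passes electrons from NADH through complex I, or from succinate through complex II, to complex III and on to oxygen at complex IV. The proton gradient built on the way drives ATP synthase. Most subunits are encoded in the nucleus and imported, and a small set of core subunits is encoded by mitochondrial DNA. Before implantation the embryo carries mitochondria inherited from the oocyte, and pyruvate is its main fuel. Many of the nuclear genes have CpG-rich promoters in which sites for NRF1 and for ETS factors of the GABP type are known.

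Promoter sequences (250 bases before to 50 after the start, RefSeq, GRCm38.p6) were found for 77 rows, which share 76 promoters. The NRF1-type motif TGCGCANGC, searched on both strands, was present in 13 of 76 (17.1%), against 5.73% of 17491 protein-coding genes. The ETS-type motif CCGGAAGT, also searched on both strands, was present in 5 (6.58%) against 5.29% of all, and no promoter held both. These promoters had a median of 20 CpG and 58.5% GC, against 13 and 56.3% for all protein-coding genes. The promoters of Uqcrc1, Ndufb10 and Sdhd are shown because these genes carry the motif and differed between litters of 1 genotype, and those of Cox6b1 and Cox6b2 because these alternative isoforms differed in their levels. Capitals mark matches to the NRF1-type motif on either strand, and overlapping matches run together in Uqcrc1. Sequences read 5′ to 3′ on the strand of the gene.
Uqcrc1, chr9:108936398-108936697, forward strand: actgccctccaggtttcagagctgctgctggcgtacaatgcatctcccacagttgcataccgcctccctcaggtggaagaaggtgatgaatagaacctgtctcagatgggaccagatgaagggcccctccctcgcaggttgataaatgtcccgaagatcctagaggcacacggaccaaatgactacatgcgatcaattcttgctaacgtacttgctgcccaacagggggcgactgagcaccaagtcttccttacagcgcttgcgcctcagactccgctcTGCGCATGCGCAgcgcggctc
Ndufb10, chr17:24724374-24724673, reverse strand: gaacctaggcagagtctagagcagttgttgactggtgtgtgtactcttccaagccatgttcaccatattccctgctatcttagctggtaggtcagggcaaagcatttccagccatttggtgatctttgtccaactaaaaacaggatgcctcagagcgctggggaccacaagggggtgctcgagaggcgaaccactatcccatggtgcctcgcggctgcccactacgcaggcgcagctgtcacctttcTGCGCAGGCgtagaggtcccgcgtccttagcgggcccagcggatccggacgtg
Sdhd, chr9:50603800-50604099, reverse strand: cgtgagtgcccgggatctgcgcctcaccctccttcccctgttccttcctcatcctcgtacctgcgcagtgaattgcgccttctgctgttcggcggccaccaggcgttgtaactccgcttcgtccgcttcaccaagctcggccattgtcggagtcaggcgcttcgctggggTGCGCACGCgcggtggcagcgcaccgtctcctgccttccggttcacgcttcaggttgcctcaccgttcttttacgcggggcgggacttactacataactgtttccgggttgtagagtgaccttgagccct
Cox6b1, chr7:30626065-30626364, reverse strand: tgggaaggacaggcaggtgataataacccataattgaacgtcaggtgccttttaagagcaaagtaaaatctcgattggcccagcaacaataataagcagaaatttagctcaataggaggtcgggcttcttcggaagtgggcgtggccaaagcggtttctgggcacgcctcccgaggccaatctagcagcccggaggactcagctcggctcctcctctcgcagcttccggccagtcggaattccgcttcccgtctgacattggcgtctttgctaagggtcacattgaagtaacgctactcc
Cox6b2, chr7:4753045-4753344, reverse strand: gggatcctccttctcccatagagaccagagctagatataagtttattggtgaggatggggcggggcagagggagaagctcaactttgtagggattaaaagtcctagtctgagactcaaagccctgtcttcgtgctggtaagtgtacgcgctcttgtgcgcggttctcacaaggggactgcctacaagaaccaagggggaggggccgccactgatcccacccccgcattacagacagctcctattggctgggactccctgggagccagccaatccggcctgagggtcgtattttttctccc
Neither Cox6b promoter holds a match to either motif in this window, which is a statement on these letters only.

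Of the 94 rows, 39 had reads in all 44 embryos and 7 had reads in fewer than 22, such as Ndufa3 with reads in 18, and 91 reached a mean of 0 on the deposited log2 RPM scale and were tested. The 3 that were not tested are isoforms known from other tissues. Ndufa4l2, a gene known for its induction by low oxygen, had no read in any embryo, Cox8b, the heart and muscle form of subunit 8, had 1 read in 1 embryo, and Cox8c, the testis form, had reads in 6 embryos with at most 6 reads. The whole set took a median of 0.422% of the reads in WT, 0.361% in HET1, 0.302% in HET2 and 0.449% in HOM embryos.

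Levels between genes were compared as mean RPM per kb of annotated exon over all embryos. These means pool groups that differ, and the order of neighbours was not tested. The length is that of all annotated exons together. For some genes it is well above that of the longest coding transcript, as in Atp5j (3130 and 809 bases) and Cox5a (2101 and 645). The order of genes therefore rests on the length used. In complex IV the highest means were those of Cox8a (354) and Cox6a1 (159), followed by Cox7a2 (102), Cox7b (102) and Cox4i1 (91.2). Cox8a stood above Cox6a1 in 41 of 44 embryos, whereas Cox7a2 stood above Cox7b in 23 of 44. In HOM Cox4i1 (129) stood above Cox7b (111) and Cox7a2 (102), and in HET2 Cox7b (123) stood above Cox6a1 (108), but below it without embryo e (96.4 and 119). In complex I they were those of Ndufb6 (330), Ndufa2 (129) and Ndufa4 (60.4). Ndufa4 was highest in HET1 (86.6), and in HOM (31.8) it stood below Ndufs8 (51.6) in 9 of 10 embryos. The place of Ndufb6 is uncertain, because 257 of its 659 bases of exon are shared with Smim27 on the opposite strand. Reads were counted without strand. In ATP synthase Atp5c1 (77.6), Atp5b (61.0) and Atp5f1 (52.4) were highest, encoding the gamma and beta subunits of the catalytic head and subunit b of the stalk. Atp5b stood above Atp5c1 in HET1 (66.8 and 56.7), and below Atp5f1 in WT (47.7 and 71.3). In WT Atp5j (60.5) and Atp5mpl (58.8) also stood above Atp5b. Uqcrfs1 (62.6), the Rieske iron-sulphur protein, Uqcr10 (55.3) and Uqcrb (55.0) had the highest means in complex III, but the order differed between groups: Uqcrb stood at 105 in WT, above Uqcrfs1 in 10 of 14 embryos, and at 18.1 in HET1. Complex II was lower, with Sdhd at 12.2, Sdha at 7.07 and Sdhb at 4.55 RPM per kb. In HET1 Sdha (6.90) stood above Sdhd (5.02). Ndufaf4 (23.3), Ndufaf8 (21.7) and Ndufaf5 (8.14) had the highest means among the assembly factors, with Ndufaf4 above Ndufaf8 in 25 of 44 embryos. In HOM Ndufaf8 (36.6) stood above Ndufaf4 (18.9), and without HET1 embryo h the pooled means were 22.1 for each.

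Alternative isoforms were mostly read from the broadly expressed member of each pair. Cox4i1 stood at 91.2 RPM per kb against 1.91 for Cox4i2, the lung form. Cox6a1 stood at 159 against 0.689 for Cox6a2, and Cox7a2 at 102 against 2.17 for Cox7a1, the latter genes being the heart and muscle forms. Cox7a2l, a factor of supercomplex assembly related to them, stood at 10.9. Cox7b stood at 102 against 2.51 for Cox7b2, a testis form that had reads in 7 embryos. Cox6c, which has no listed alternative form, stood at 17.8. Atp5g1, Atp5g2 and Atp5g3 encode the same mature c subunit of the ATP synthase ring, and stood at 28.2, 1.95 and 15.0. Atp5g1 stood above Atp5g3 in 38 of 44 embryos, and in 10 of 14 in WT, where the means of 17.8 and 28.3 rested on embryo k and were 19.1 and 17.5 without it. The share of Atp5g3 in the sum of these 3 genes had a median of 36.7% in WT litter 1, 75.7% in WT litter 2, 20.2% in HET1, 44.5% in HET2 and 16.9% in HOM, and these shares were not tested.

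Cox6b was the exception. Cox6b2, known as the testis form of subunit 6b, had reads in all 44 embryos and stood at 57.1 RPM per kb, near the 76.9 of the broadly expressed Cox6b1. As a share of Cox6b1 and Cox6b2 together, both per kb, Cox6b2 took 8.69% to 43.2% in WT embryos (median 27.7%). The share was 24.2% to 83.4% in HET1 (median 51.4%), 40.9% to 69.8% in HET2 (median 61.8%) and 14.7% to 61.5% in HOM (median 32.2%). Per kb of annotated exon, no WT embryo had more Cox6b2 than Cox6b1, whereas 8 HET1, 4 HET2 and 2 HOM embryos did. These counts rest on the length used. The annotated exons span 1108 bases in Cox6b2 and 708 in Cox6b1, and the longest coding transcripts 585 and 618. Before division by length, WT embryo m had more Cox6b2 (4.33 log2 RPM) than Cox6b1 (4.08). In HET1 the embryos with more Cox6b2 per kb were 7 of 8 of litter 2 and 1 of 7 of litter 1. In the litters sired by heterozygous males they were all from litter 1. These shares were looked at after the values were seen, and were not tested. Cox6b2 (chr7:4751792-4753094, GRCm38) and Cox6b1 (chr7:30616861-30626151) overlap no exon of another annotated gene, and neither transcript matched another gene closely.

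**Figure D1:**
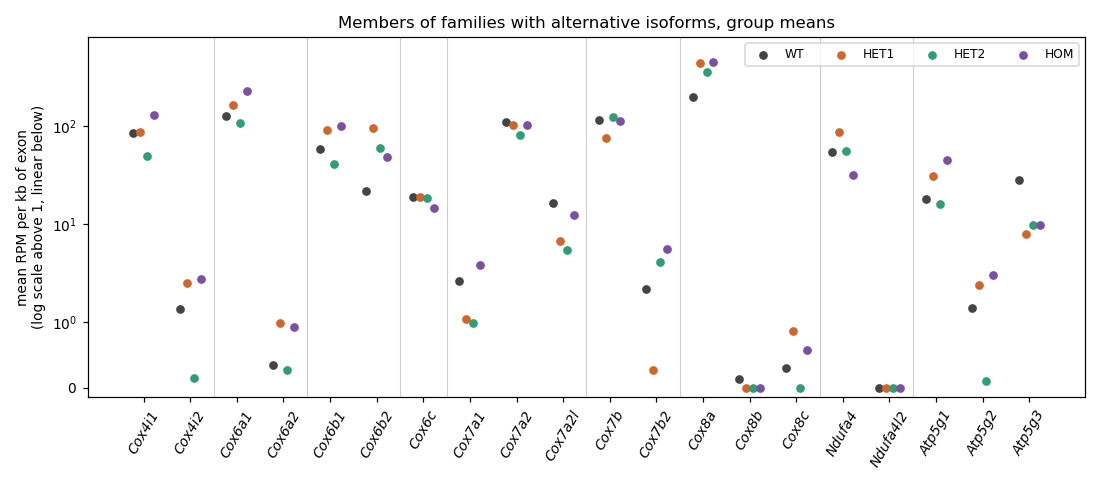
Mean RPM per kb of annotated exon (log scale above 1, linear below) for 20 genes of families with alternative isoforms, 1 point for each of the 4 groups (WT, HET1, HET2 and HOM). In the Cox4i, Cox6a and Cox8 families the alternative forms lie under 3 in every group, whereas Cox6b2 lies at 94.7 against 91.6 for Cox6b1 in HET1 and at 21.9 against 58.0 in WT.

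The comparison of HOM with WT embryos asks whether the chain differs where maternal and zygotic Dppa2/4 are both missing. No respiratory chain gene was called (0 of 91 at an adjusted p of 0.05 by limma), in a comparison that called 0.0183% of 16412 genes. At an unadjusted p under 0.05 there were 21 of 91 (23.1%), against 14.5% of all genes, and limma voom on the recovered reads also called 0. The median log2 difference of the 91 genes was 0.18, against 0.09 for all genes, and it turned to -0.01 when each embryo was re-centred on its median and to -0.35 without HOM litter 2. It was below that of all genes among genes with a mean of 3 log2 RPM or more (0.09 against 0.24), without the common floor (0.38 against 0.49) and by limma voom (0.20 against 0.44). The 5 smallest p-values were all toward higher values in HOM, in Cox8a, Atp5g1, Cox6b2, Ndufv3 and Ndufa11.

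Cox8a (chr19:7215158-7217616), the broadly expressed form of subunit 8 of complex IV, stood at 4.49 to 7.93 log2 RPM in WT (median 6.90) and at 6.44 to 8.90 in HOM (median 8.22). The ranges overlapped, and the difference was 1.33 ± 0.37 (SE, limma adjusted p = 0.119). Atp5g1 stood at 3.08 to 7.84 in WT (median 6.29) and at 5.85 to 8.74 in HOM (median 7.80), a difference of 1.39 ± 0.40 with a limma adjusted p of 0.133. Cox6b2 stood at 0.91 to 5.77 in WT (median 4.50) and at 4.67 to 6.64 in HOM (median 5.62), a difference of 1.35 ± 0.39 with a limma adjusted p of 0.133. Ndufv3 and Ndufa11, accessory subunits of complex I, differed by 0.95 ± 0.30 and 1.16 ± 0.37, with limma adjusted p-values of 0.15 and 0.152. Ndufv3 was low, with 9 of 14 WT and 3 of 10 HOM embryos at or under the floor of 1.86, the log2 RPM that stands for no reads in the shallowest embryo. The lowest WT values of Cox8a, Atp5g1, Cox6b2 and Ndufa11 (1.91) were all those of WT embryo k. This embryo had reads in the fewest genes of any embryo (9169, at 1065975 reads). WT embryo j, with reads in 9403 genes, had the next lowest WT values of Cox6b2 (2.36) and Cox8a (4.94). The differences without embryo k alone are not given. Without HOM litter 1, Atp5g1 (1.77) and Ndufv3 (1.46) were called higher, and without WT litter 1, Atp5g3 (-2.54) and Ndufc2 (-2.80) were called lower. For fits without a litter the share of all genes called is not given, so these calls cannot be judged against it.

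**Figure D2:**
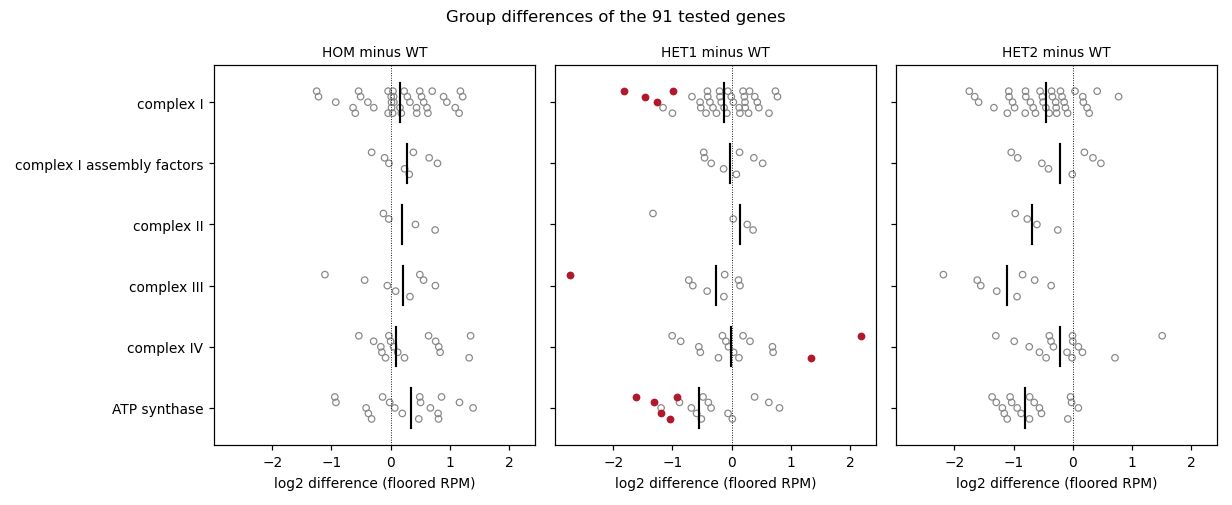
Log2 difference from WT (RPM with values below a common floor set to it) of the 91 tested genes in HOM, HET1 and HET2, 1 point for each gene, by complex. Filled points passed an adjusted p of 0.05 and black bars are medians: 12 points are filled in HET1 and 0 in HOM and HET2.

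In HET1 against WT embryos, which differ in the loss of maternal Dppa2/4 and 1 zygotic allele, 12 respiratory chain genes were called, 2 higher and 10 lower. They were 13.2% of the 91 tested, against 4.54% of all 16412 genes. With litter as a random effect, or with litter means as the replicates, limma called 0 of these 91 and 0 of all 16412 genes, so the p-values below rest on embryos as replicates. Well-expressed genes were called more often in general: among genes whose mean was 3 log2 RPM or more the share was 9.44%, against 11 of 63 respiratory chain genes (17.5%). By complex, the higher genes were 2 of 16 in complex IV (Cox6b2 and Cox8a). The lower genes were 4 of 37 in complex I (Ndufs1, Ndufc1, Ndufb4, Ndufv2), 1 of 8 in complex III (Uqcrb) and 5 of 18 in ATP synthase (Atp5f1, Atp5j, Atp5mpl, Atp5g3, Atp5c1). By limma 0 of 4 genes of complex II and 0 of 8 assembly factors were called. At an unadjusted p under 0.05 there were 1 and 0, against 18.4% of all genes. The median log2 difference of all 91 was -0.14, against 0.05 for all genes. When each embryo was re-centred on its median it was -0.29 against 0, and 16 genes were called, 14 of them lower. The share of all genes called in that fit is not given, so the rise from 12 to 16 cannot be tied to these genes.

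The largest of the higher genes was Cox6b2. It stood at 0.91 to 5.77 log2 RPM in WT (median 4.50) and at 4.64 to 7.66 in HET1 (median 6.54), with overlapping ranges. The WT value of 0.91 was that of embryo k. The difference was 2.19 ± 0.35 (limma adjusted p = 0.000595). Both HET1 litters lay above WT, with medians of 6.10 and 7.23 against 4.50 and 4.65 in the WT litters.

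Cox8a stood at 6.88 to 8.97 in HET1 (median 8.25), a difference from WT of 1.35 ± 0.33 (limma adjusted p = 0.0129). Its litter medians were 6.90 and 6.57 in WT and 7.70 and 8.38 in HET1.

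Uqcrb, a small subunit of complex III, stood at 3.71 to 7.75 log2 RPM in WT (median 6.32) and at 0.36 to 5.97 in HET1 (median 3.47). It fell by 2.74 on the log2 scale (SE 0.49, limma adjusted p = 0.00151), and 5 HET1 embryos were at or under the floor. The litter medians were 5.97 and 6.39 in WT and 4.47 and 2.94 in HET1. Near-identical copies elsewhere in the genome match 62.8% of its transcript, so its reads may be shared with them.

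Atp5f1 stood at 7.07 to 8.80 in WT (median 8.18) and at 6.22 to 7.85 in HET1 (median 7.13). It fell by 1.04 (SE 0.20, limma adjusted p = 0.00214), and here too 64.6% of the transcript matches other genes closely, and exons overlap Wdr77 on the opposite strand. Atp5j, subunit F6 of the stalk, stood at 6.82 to 9.03 in WT (median 7.33) and at 4.01 to 7.10 in HET1 (median 6.05). It fell by 1.62 (SE 0.31, limma adjusted p = 0.00231). Atp5j shares 397 bases of exon with Gabpa on the opposite strand, of 3130 in all, and unstranded reads in that stretch cannot be assigned to either gene.

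Ndufs1, an iron-sulphur core subunit of complex I, stood at 3.37 to 6.06 in WT (median 4.96) and at 0.77 to 4.84 in HET1 (median 3.47), with 4 HET1 embryos at or under the floor. It fell by 1.46 (SE 0.33, limma adjusted p = 0.00715). Ndufs1 shares exon with Ino80dos and Eef1b2 on the opposite strand. Ndufc1, an accessory subunit of the membrane arm, fell by 1.82 (SE 0.48, limma adjusted p = 0.0207). It stood at 3.78 to 6.29 in WT and at 0.51 to 6.18 in HET1, and the HET1 litter medians of 4.85 and 1.64 lay on either side of the group median of 2.67.

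The other genes called were nearer to the threshold, with limma adjusted p-values of 0.0358 to 0.0472. Atp5mpl, a small membrane subunit of ATP synthase, fell by 1.19, Atp5g3 by 1.31 and Atp5c1, the rotating gamma subunit, by 0.92. Ndufv2, an iron-sulphur subunit of complex I, fell by 1.26. Ndufb4 fell by 1.00, with 14 of 15 HET1 embryos and 6 of 14 WT embryos at or under the floor and 40.2% of its transcript matched by another gene. None of the 94 genes had ranges that separated HET1, HOM or HET2 from WT, and over all 16412 genes tested 0%, 0.0122% and 0.0609% did.

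**Figure D3:**
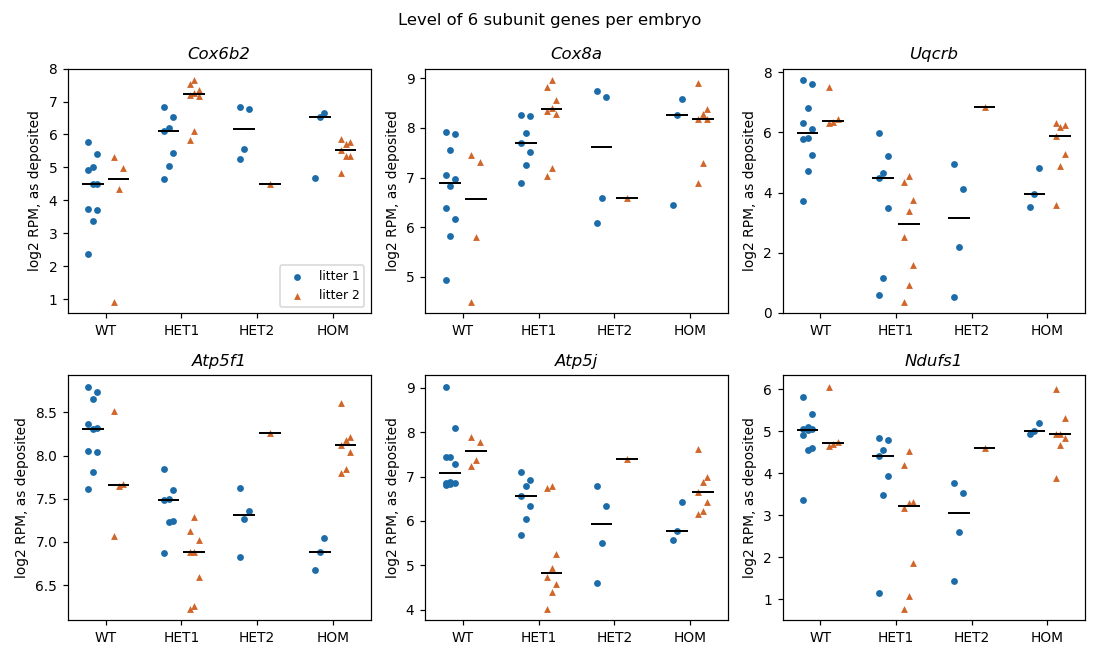
Deposited log2 RPM of 6 genes in each embryo, by group (x axis) and litter (circles, litter 1 and triangles, litter 2), with black bars at the litter medians. Cox6b2 and Cox8a lie higher and Uqcrb, Atp5f1, Atp5j and Ndufs1 lower in HET1 than in WT, and all ranges overlap.

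The calls in HET1 rested on its litters. Without HET1 litter 2, 0 of 91 genes were called and the median difference was 0.37, and without HET1 litter 1, 29 were called (3 higher, 26 lower). Without the embryos under 500000 reads, 4 genes were called: Cox6b2, Uqcrb, Atp5f1 and Atp5j. Without WT litter 1, 5 were called, Cox6b2 (2.34) higher and Uqcrb (-3.21), Atp5g3 (-2.92), Ndufc2 (-2.59) and Cox7a2l (-2.47) lower. The share of all genes called is not given for these fits, so their counts do not set respiratory chain genes apart from other genes. With litter as a random effect the difference in Cox6b2 was still 2.19, with an adjusted p of 0.177 by limma, and without HET1 litter 2 it was 1.56.

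Other genes of the system were compared from lists. Of 39 assembly factors outside the naming rule, of which Tmem70 (5.98 log2 RPM) and Cox10 (5.70) had the highest means, 1 was called in HET1 against WT, Coa6, which fell by 1.22 (limma adjusted p = 0.0462). Of 13 mitochondrially encoded subunits, mt-Nd3 was higher by 1.58 (limma adjusted p = 0.00192) and the other 12 were not called. The highest were mt-Co1 (14.66 log2 RPM) and mt-Cytb (14.55). Their summed level had a median of 121195 RPM in WT, 78678 in HET1, 84342 in HET2 and 86463 in HOM, with ranges that overlapped between all groups. Among 14 electron carriers and exchangers, led by Slc25a3 (8.18) and Slc25a5 (6.90), limma called 0 in HET1 against WT. It also called 0 of 11 tested regulators, led by Gabpa (7.83) and Yy1 (7.21). At an unadjusted p under 0.05 there were 6 of 14 and 2 of 11, against 18.4% of all genes. Over all genes 4.54% were called in this comparison. The two-cell markers Sp110 (0.75) and Dppa3 (0.71) were higher in HET1, and Ovgp1, the oviduct glycoprotein, was lower (-2.18). The part of these markers in the calls was not tested.

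In HET2 against WT, 0 of 91 respiratory chain genes were called, in a comparison that called 0.0305% of all genes, and limma voom also called 0. There were 18 genes at an unadjusted p under 0.05 (19.8%, against 8.52% of all genes). The median log2 difference was -0.53 against -0.00 for all genes, with 75 of 91 differences below 0, and by complex the medians ran from -0.21 in complex IV and the assembly factors to -1.11 in complex III. The smallest p-values were those of Ndufs1, Uqcrb, Cox6b2, Atp5j and Atp5k. Embryo e is the only HET2 embryo of litter 2. Without the 4 embryos of litter 1 the arm was this 1 embryo, assumed to vary like the other groups. The median was then -0.09, and Ndufa5 (2.19) and Ndufaf6 (2.60) passed the threshold.

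Ndufs1 was at 2.61, 3.76, 3.52 and 1.44 log2 RPM in HET2 embryos a to d, and at 4.61 in embryo e. The difference from WT was -1.66 ± 0.46 (limma adjusted p = 0.297). Uqcrb was at 4.11, 4.94, 0.52 and 2.18 in embryos a to d and at 6.86 in embryo e, a difference of -2.19 ± 0.68. In both genes embryo e lay inside the WT range, with embryos b and c for Ndufs1 and a and b for Uqcrb. Cox6b2 was at 5.24, 5.55, 6.77 and 6.85 in embryos a to d and at 4.50 in embryo e, a difference of 1.51 ± 0.49. Atp5j was at 6.34, 6.78, 4.61 and 5.50 in embryos a to d and at 7.39 in embryo e. For Atp5j embryo e alone lay inside the WT range, and for Cox6b2 it lay at the WT median, with embryos c and d above the WT range. Atp5k, a subunit of the dimer interface of ATP synthase, was at 0.49 to 1.52 in all 5, below the floor.

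The comparison of HOM with HET2 within their shared litters separates the zygotic genotype from the litter. No respiratory chain gene was called (0 of 91, in a comparison that called 0.0122% of all genes), 5 genes (5.49%) had an unadjusted p under 0.05 against 4.36% of all genes, and the median difference was 0.41 against 0.10. The smallest p belonged to Ndufs1, at 3.89 to 6.00 in HOM against 1.44 to 4.61 in HET2, with a difference of 1.50 ± 0.45 and a limma adjusted p of 0.898. Ndufs8 (1.41), Uqcrc1 (1.58), Atp5k (1.18) and Cox4i1 (0.99) followed, none past the threshold. Without litter 2 the median difference was 0.10, and without litter 1 it was 0.81. It was 0.18 with re-centred embryos, against 0 for all genes, and 0.80 against 0.08 without the litter as a block.

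Litters of the same group were then compared. Summed over complex III, HET1 litter 1 stood at 253 to 437 RPM and litter 2 at 57.0 to 214, without overlap. For ATP synthase the sums were 1054 to 2153 RPM in litter 1 and 487 to 1068 in litter 2, overlapping by little. For complex IV they were 863 to 1736 and 679 to 1624, with medians of 1171 and 1194. In the litters sired by heterozygous males the order ran the other way. The complex III sums were 103 to 192 RPM in HOM litter 1 and 218 to 581 in HOM litter 2, and those of ATP synthase were 754 to 1018 and 1046 to 2563, both without overlap. For ATP synthase the HET2 embryos lay with them, at 632 to 948 RPM in the 4 embryos of litter 1 and at 1255 in the embryo of litter 2. For complex III they stood at 88.8 to 220 and at 231. There embryo d of litter 1 (220) lay inside the range of HOM litter 2. For complex IV, HET2 litter 1 had a median of 929 and the embryo of litter 2 stood lower, at 840. In WT the sums of ATP synthase overlapped, at 989 to 1972 and 1278 to 1413 RPM.

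**Figure D4:**
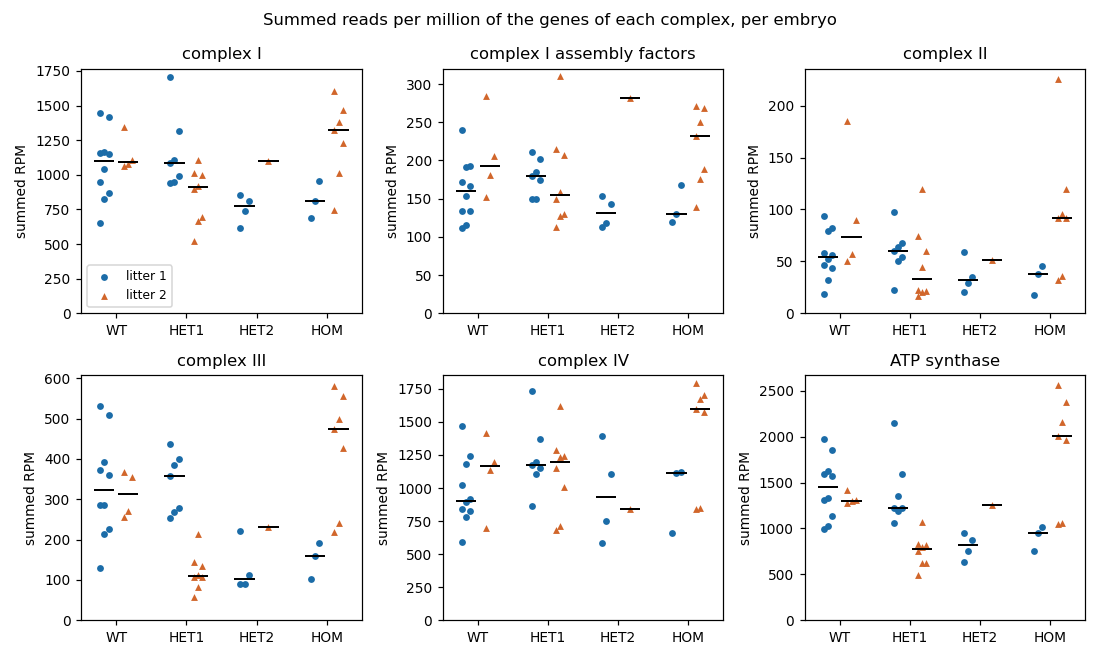
Summed RPM of the genes of each complex in each embryo, by group (x axis) and litter (circles, litter 1 and triangles, litter 2), with black bars at the litter medians and y axes starting at 0. For complex III, HET1 litter 2 (57.0 to 214) lies below litter 1 (253 to 437), and HOM litter 1 (103 to 192) lies below litter 2 (218 to 581).

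In HET1, 35 of 91 respiratory chain genes were called between the litters (38.5%, against 16.6% of all genes), 33 lower and 2 higher in litter 2. When embryos were re-centred on their own medians 25 were called, 21 lower and 4 higher, and the median of the 91 moved from -0.90 to -0.60. Of all genes, 11.6% were called lower. Among genes whose mean was 3 log2 RPM or more the share called was 29.5%, against 28 of 63 respiratory chain genes (44.4%), and their median differences were -0.38 and -0.98. By complex, 12 of 18 genes of ATP synthase, 4 of 8 of complex III, 13 of 37 of complex I and 3 of 8 assembly factors were lower, as were 1 of 16 of complex IV and 0 of 4 of complex II. In complex IV 7 of 16 had an unadjusted p under 0.05 and 11 of 16 differences were below 0, and in complex II 0 of 4 and 3 of 4. Of all genes 29% had such a p, and the difference between complexes was not tested. Without the embryos under 500000 reads 15 were called, all lower and all among the 35. For this fit and the re-centred one the share of all genes called is not given. The median depth was 663861 reads in litter 1 and 524828 in litter 2.

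Uqcrc1, a core subunit of complex III whose promoter is printed above, stood at 5.40 to 7.0 log2 RPM in HET1 litter 1 and at -0.56 to 4.24 in litter 2, without overlap. It fell by 3.79 (SE 0.56, limma adjusted p = 1.05e-05). Ndufc1 stood at 3.47 to 6.18 and at 0.51 to 2.67, again without overlap, and fell by 2.78. Cox4i1, the broadly expressed form of subunit 4 of complex IV, stood at 6.96 to 8.63 and at 3.35 to 6.75 and fell by 1.99. Of the 94 genes, 9 had litter ranges that did not overlap in HET1, as did 2.99% of all 16412 genes tested: Ndufc1, Atp5k, Cox4i1, Uqcrc1, Ndufs7, Uqcr10, Ndufaf8, Ndufb10 and Ndufv2.

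Atp5o, the oligomycin-sensitivity subunit, fell by 2.34, Atp5mpl by 1.91 and Atp5j2 by 2.56. The Atp5o transcript is matched over 92.0% of its length by 3 genes. Its exons also overlap 3 annotated genes, the read-through row among them. Ndufb10 fell by 2.34, Ndufaf7, a methyltransferase of complex I assembly, by 2.78 and Atp5a1, the catalytic alpha subunit, by 1.60. The 2 genes that rose in litter 2 were Ndufa4 (1.51 ± 0.48) and the assembly factor Ndufaf4 (0.93 ± 0.33). Ndufa4 stood at 4.00 to 7.15 in litter 1 and at 6.01 to 7.95 in litter 2. Of the 33 lower genes, 26 had a promoter sequence, 3 of them with the NRF1-type motif (Uqcrc1, Ndufa6 and Ndufb10), against 9 of 47 genes not called.

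Some genes of the other lists were also called between the HET1 litters, in a comparison that called 16.6% of all genes. Of the 39 further assembly factors, 8 were lower in litter 2, led by Uqcc3 (-3.54) and Cox17 (-2.35), and Sdhaf4 was higher (1.14). Of 14 electron carriers and exchangers, Slc25a3, the phosphate carrier (-1.57), Etfa (-1.56) and Atpif1 (-0.94) were lower and Slc25a5, an ADP/ATP carrier (1.34), was higher. Of 11 tested regulators, Polrmt, the mitochondrial RNA polymerase (-2.89), Pprc1 (-1.50) and Nrf1 (-1.48) were lower and Gabpb1 (0.79) was higher. Of the 13 mitochondrially encoded subunits, mt-Co2 (-1.59), mt-Co1 (-0.87) and mt-Nd6 (-0.87) were lower. Nr5a2, on which the level of the cumulus list rests, was lower (-1.24), and the source of its reads was not tested. Of the two-cell and oocyte markers 6 of 12 were higher in litter 2, led by Obox5 (3.49). Their summed level was 2075 to 3981 RPM in litter 1 and 3481 to 8009 in litter 2. The part of these markers and of depth in the differences of the respiratory chain genes was not tested.

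In HOM, 6 genes were called between the litters (6.59%, against 1.79% of all genes), all higher in litter 2, and the median of the 91 was 0.99 against 0.00 for all genes. Atp5f1 was at 6.88, 7.05 and 6.68 log2 RPM in the 3 embryos of litter 1 and at 7.80 to 8.61 in litter 2. The ranges did not overlap, and Atp5f1 rose by 1.25 ± 0.26 (limma adjusted p = 0.0103). Sdhd, a membrane anchor of complex II, was at 1.88, 0.35 and 1.32 in litter 1 and at 2.71 to 6.55 in litter 2, and rose by 2.73 ± 0.70. Uqcr11, a small subunit of complex III of whose transcript 38.4% is matched by another gene, was at 0.30, 0.35 and 1.73 and at 2.89 to 6.09, and rose by 2.72 ± 0.62. Cox7c (2.24), Ndufc1 (2.21) and Ndufv3 (1.69) were the others. Litter 1 holds 3 embryos, and the count was 3 without embryo a, 1 without embryo b (Atp5f1) and 4 without embryo c, and 1 without embryos under 500000 reads (Atp5f1). Atp5f1 was not among the 1 call without the common floor (Ndufc1) or the 4 calls with re-centred embryos (Ndufa7, Ndufaf8, Ndufv3 and Uqcr11). Of the other lists, the assembly factors Cox17 (3.11) and Uqcc3 (2.60) and the carrier Slc25a3 (1.23) were higher in litter 2. By limma 0 regulators and 0 mitochondrially encoded subunits were called. At an unadjusted p under 0.05 there were 2 and 0, against 16.6% of all genes. The two-cell and oocyte markers summed to 3728 to 5041 RPM in litter 1 and 2400 to 3294 in litter 2, with Obox5 (-2.04) and Oosp1 (-1.83) lower in litter 2, and their part was not tested.

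In WT, 3 genes were called between the litters (3.30%, against 2.55% of all genes), all higher in litter 2: Atp5g3 (2.26 ± 0.50), Ndufc2 (2.22 ± 0.53) and Cox7a2l (2.25 ± 0.65). Atp5g3 was at 8.53, 7.09, 5.81 and 5.73 in the 4 embryos of litter 2 and at 3.56 to 5.34 in litter 1, without overlap. Ndufc2 was at 6.93, 4.53, 3.04 and 5.05, and at -0.84 to 4.86 in litter 1. Embryo k, the first of these 4, was the highest in both, and without it 0 genes were called. Without embryo m 5 were called, with Cox6c (1.26) higher and Atp5f1 (-0.81) lower besides these. Tfb2m, a mitochondrial transcription factor, fell by 1.91, and mt-Co2 (2.15) and Atpif1, the inhibitor of ATP synthase (1.16), were higher. Ovgp1 was higher by 5.21 in litter 2 (limma adjusted p = 1.48e-08), and the 6 oviduct markers summed to 54.2 to 1536 RPM there against 0 to 76.8 in litter 1. In HET1, HET2 and HOM they summed to at most 10.9 RPM. The part of oviduct RNA in these calls and in the comparisons with WT was not tested.

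**Figure D5:**
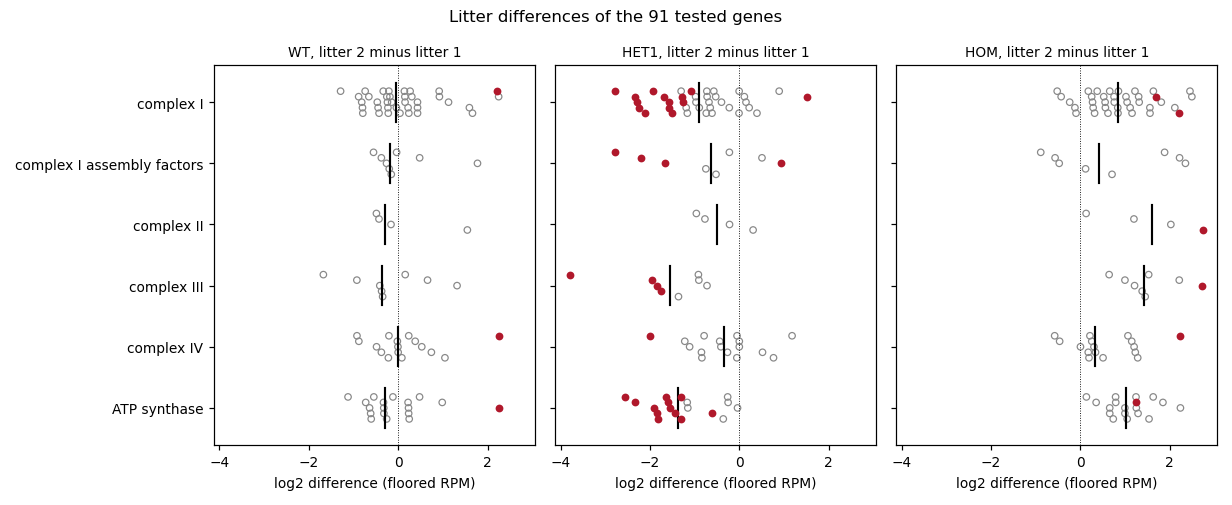
Log2 difference between litter 2 and litter 1 (RPM with values below a common floor set to it) of the 91 tested genes in WT, HET1 and HOM, 1 point for each gene, by complex. Filled points passed an adjusted p of 0.05 (3, 35 and 6 genes) and black bars are medians, below 0 for every complex in HET1 and above 0 in HOM.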

How the data were processed

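Each embryo was lysed and its cDNA made by Smart-seq2 with oligo-dT priming, and Nextera XT libraries were sequenced on a NextSeq500. The authors trimmed reads with Trim Galore (0.6.5, cutadapt 2.3), mapped them to GRCm38 with HISAT2 (2.1.0), filtered them at MAPQ 20 and counted them over mRNA probes in SeqMonk, ignoring strand; the deposited values are log2 RPM. A gene without reads holds the value of 0.9 read, which depends on depth. Whole reads were recovered from this (99.9997% of values within 0.05 read). Reads have no molecular identifiers, so depth speaks to counting error only, and 3 reads or fewer are near the limit of detection.

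Values below 1.86, the highest no-read value of any embryo, were set to it. The 16412 genes with a mean of at least 0 were tested with limma 3.58.1 (R 4.3.3, eBayes with trend, Benjamini-Hochberg over all genes, threshold 0.05): the 4 groups in 1 model of 44 embryos, HOM against HET2 with litter as a block, and litters in a model of group by litter. Log2 differences are between floored values and understate those of low genes. The study names no test for differential expression. The script was tested on simulated data. Sums and shares were described without tests.

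Named genes were, in each comparison of groups, the 10 with the smallest p among those called, or the 5 smallest where fewer than 5 passed; the 3 highest per kb in each complex; all members of families with alternative isoforms; and up to 3 called genes and the 2 highest of each other list that could be tested. Genes named in comparisons of litters, or under an alternative, were chosen after their values were seen. The members and lists were chosen with earlier results of these data known. Alternatives changed the filter, the floor, the pseudocount, the scaling, the weights and the treatment of litter, and left out litters or embryos; removal of embryos under 500000 reads and limma voom were added after seeing the data.

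Exon lengths and overlaps come from GENCODE release 21 for mouse (90 of 94 coordinates equal those of the table), and copies from BLAST 2.17.0 of transcripts (97% identity over at least 75 bases). At least 50% of the transcript was matched in 7 rows, and 33 overlapped another gene's exons. Matches were sought on both strands and can include genes that overlap the row itself. Figures were drawn with matplotlib 3.10.9.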

Additional observations from a re-analysis of the deposited data

Results flagged for a closer look

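Among 26 values looked at in HET2 and HOM (52 groups of embryos, of which chance would place about 1 in 20 past the limit), 3 embryos stood far from the rest. The complex I assembly factors summed to 282 RPM in HET2 embryo e, the only HET2 embryo of litter 2, against 113 to 154 in the other 4. The 4 genes of complex II summed to 225 RPM in HOM embryo h, where the next highest HOM embryo had 119 and the lowest 17.6. Atp5k stood at -1.29 log2 RPM in HOM embryo a, against 1.56 to 4.61 in the other 9. Both -1.29 and 1.56 lie under the floor of 1.86 used in the tests, where they count as equal.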

How the results depend on the processing

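In HET1 against WT, the 12 calls became 0 with litter as a random effect, 0 with litter means as the replicates, 7 when only these groups were fitted and 4 without embryos under 500000 reads, and 0 to 29 over the fits that left out a litter. The direction of the 12 genes held in every alternative, and the threshold was passed in 13 of 16 alternatives by Cox6b2 and Uqcrb, in 12 by Atp5f1 and Atp5j, in 11 by Cox8a and Ndufs1, in 10 by Ndufc1, in 9 by Atp5c1, in 8 by Atp5g3, in 7 by Atp5mpl and Ndufv2 and in 5 of 15 by Ndufb4. HOM against WT and HET2 against WT gave 0 to 2 calls over left-out litters or embryos, and HET2 gave 1 call (Ndufs1) with array weights. HOM against HET2 stayed at 0 in all 15 alternatives, also without the replicate block (0). Between litters, the 3 WT calls became 1 with array weights and 0 to 5 over left-out embryos. The 35 HET1 calls became 15 without embryos under 500000 reads. The 6 HOM calls became 1 without the common floor, 10 with array weights, 1 without embryos under 500000 reads and 1 to 4 over left-out embryos. The cause was not tested, but alternatives that leave out embryos fit fewer samples. The counts in this paragraph are of respiratory chain genes alone, without the share of all genes called in the same fit.

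Mating numbers are not known to pair litters of different crosses, whose individual parents are not named. Litter differences correlated at 0.446 (WT and HET1), -0.437 (WT and HOM) and -0.759 (HET1 and HOM) over 6919 genes. A replicate block on the mating number gave 9 calls in HET1 against WT and 0 in HOM and in HET2 against WT. Without the common floor the median of all genes in HET1 against WT moved from 0.05 to 0.61, and with limma voom to 0.51, while that of the respiratory chain genes was -0.18 and -0.27. Low depth in HET1 limits the genes near the floor.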
